A study of Mus musculus with 9 samples.

Results

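Cells picked as retinal ganglion cells after injury of the optic nerve were compared between eyes given Olig2 and eyes given green fluorescent protein (GFP), over all genes of the deposited count table. The comparison used 6 of the 9 libraries of the series, 3 of the group Olig2 and 3 of the group GFP, taken by their labels and by no measured value. Both groups were adult male wild-type mice. An adeno-associated virus of type AAV2 (1.5 µL) carrying either Olig2 or GFP was placed in the vitreous, the optic nerve was crushed, and cells were taken 14 days after the crush, with 14 days also stated for the virus. Retinal cells were enriched on magnetic beads that bind CD90.2 (Thy1), and 10 to 15, 15 to 20 or 10 to 20 GFP-positive cells, depending on the part of the labels, were picked under a microscope for each library. Polyadenylated RNA was copied and amplified over 20 cycles with the SMART-Seq HT kit. The promoter of the virus, the way in which cells given Olig2 came to carry GFP, and whether the libraries of a group came from different animals are not stated in the sources used here. The p-values below therefore reflect only how these libraries vary, and part of that may be technical.

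Retinal ganglion cells are the output neurons of the retina, and their axons form the optic nerve. Crushing that nerve sets off an injury programme in the cell body, in which the kinase DLK and the factors Jun, Atf3 and Sox11 take part, together with stress, interferon and cytokine signalling, and most of the cells then die. Olig2 is a basic helix-loop-helix transcription factor of the neural tube and the oligodendrocyte lineage. It binds DNA as a dimer and acts mostly as a repressor of neighbouring cell fates.

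Total counts ran from 5428776 to 6979851 per library, and levels are given as CPM (read counts relative to the library total, with TMM scaling), in the order of libraries 1 to 3 of a group. A count of 0 allows up to 3 counts, which came to 0.381 to 0.715 CPM. These floors and the intervals below cover counting error only, since amplified reads without molecular identifiers are not independent molecules. Malat1, a nuclear noncoding RNA, had 36275, 23559.8 and 24898 CPM with GFP and 24319, 152023 and 74751 CPM with Olig2. Olig2 libraries 2 and 3 thus stood apart from the other 4, and several results on lists of genes are also given with Olig2 library 1 alone, a setting chosen after seeing the data. The labelled cell type was checked against its markers. The 23 ganglion cell markers summed to 2193, 938 and 1358 CPM with GFP and 368, 708 and 382 CPM with Olig2. Among the defining ones, Rbpms had 10.6, 12.4 and 21.3 CPM with GFP and 1.28, 9.06 and 5.56 CPM with Olig2. Thy1, the target of the beads, had 27.8, 8.63 and 12.5 CPM with GFP and 4.99, 21.9 and 8.25 CPM with Olig2. Pou4f2 was counted only in library 2 of each group, and Pou4f1 stayed below 8 CPM throughout. The 22 rod genes summed to 51848, 79180.0 and 61800.3 CPM with GFP and 89876, 181142 and 215609 CPM with Olig2, so none of the libraries held ganglion cell RNA alone. Fewer cells of a type and less RNA per cell cannot be told apart in such pooled picks, which bears on every result below.

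The delivered gene was checked first. Olig2 counts were 0 in each GFP library and 114, 97 and 21 in the Olig2 libraries, or 16.3, 23.1 and 3.77 CPM. All Olig2 libraries thus stood above the GFP libraries. The level pooled over the Olig2 group was at least 102-fold higher, against a floor of 3 counts over the GFP group (log2 change 9.50, SE 2.05, edgeR adjusted p = 0.375). Reads of the delivered copy and of the resident gene (chr16:91225457-91228677, plus strand) cannot be told apart. Olig1 had 1 count in 1 Olig2 library and 0 elsewhere, and Olig3 had 13, 0 and 40 counts with GFP against 0, 5 and 7 with Olig2.

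The comparison asks which genes differed with Olig2. Of 15609 genes tested, 8 passed an adjusted p of 0.05 (0.0513%). The 6 that rose (0.0384%) were Pcp2, Pet100, Jchain, Igkc, Slpi and Igkv14-111, and the 2 that fell (0.0128%) were Irf7 and Cd63. Pcp2 and Pet100 are counted over the same stretch of a bipolar cell gene, Jchain, Igkc and Igkv14-111 code for parts of antibodies, Irf7 belongs to the interferon response and Cd63 to late endosomes. Slpi, a secreted protease inhibitor, belongs to none of these groups. At an unadjusted p below 0.05 there were 731 genes (4.68%), 407 higher (2.61%) and 324 lower (2.08%). All 3 Olig2 libraries lay above all 3 GFP libraries in 1322 genes (8.47%) and below them in 1304 (8.35%). These shares are the background against which the members of each gene family are read. The median difference in mean log2 CPM over all genes tested was 0.06. The calls depended on single libraries. None passed when GFP library 1, GFP library 3 or Olig2 library 1 was left out, where edgeR gave 0 genes, with 774, 659 and 632 at an unadjusted p below 0.05. The count was 5 when GFP library 2, Olig2 library 3 or Olig3 library 2 was left out, and 24 when Olig3 library 3 was. With Olig2 library 1 alone it was 7, all higher, of which 4 were among the 8. Of the 9 fits that left out 1 library, Pcp2, Jchain and Igkc each passed in 6, Irf7 in 5, Pet100 in 4, Slpi and Cd63 in 3 and Igkv14-111 in 2.

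**Figure D1:**
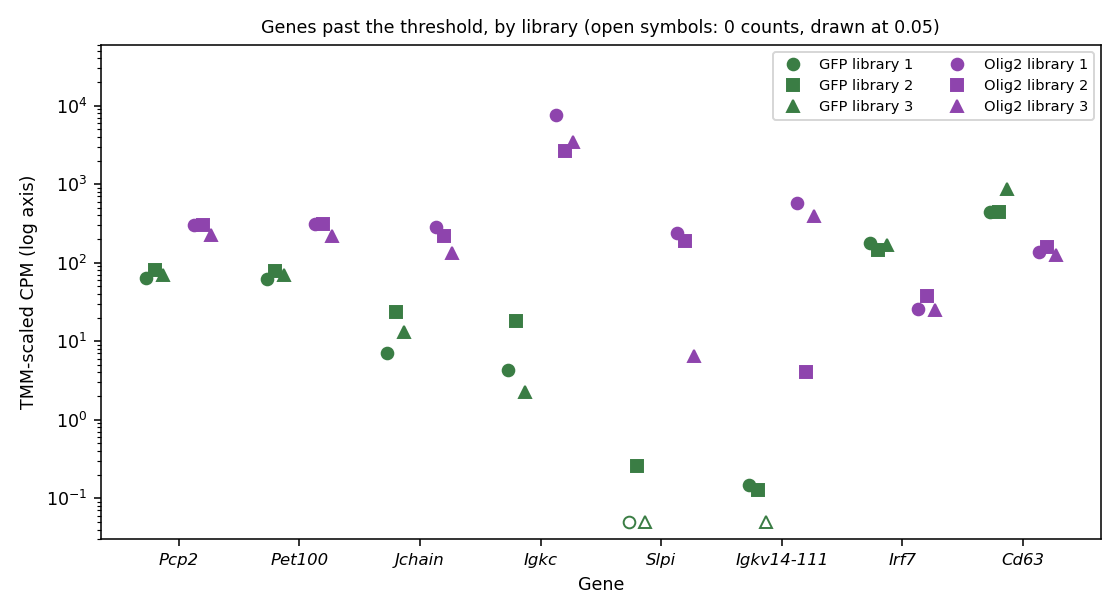
Level of the 8 genes past the threshold in each of the 6 libraries, as TMM-scaled CPM on a log axis (green, GFP; purple, Olig2; the symbol gives the library number; open symbols stand for 0 counts). The groups are apart for every gene, with Olig2 library 3 low for Slpi (6.46 CPM) and Olig2 library 2 low for Igkv14-111 (4.05 CPM).

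None of the tested genes of the oligodendrocyte lists passed the threshold. Of the 15 precursor genes 7 were tested, and 1, Lhfpl3, was without overlap and higher, while 1, Sox9, was without overlap and lower. Lhfpl3 had 53.9, 24.6 and 52.2 CPM with GFP and 75.2, 76.5 and 91.9 CPM with Olig2. Of the 20 genes of myelinating oligodendrocytes 7 were tested, of which 1 was higher and 0 were lower without overlap. The list medians were 0.07 and -0.05 on the log2 scale. Without 1 library they ran from -0.69 to 0.61 and from -0.31 to 0.55, so the sign of both depended on single libraries. The E proteins, which pair with Olig factors, summed to 229, 161 and 249 CPM with GFP and 276, 173 and 146 CPM with Olig2, so the groups overlapped. Among 15 proneural helix-loop-helix factors, 7 were tested and 2 were without overlap and higher. Bhlhe23, which acts in rod bipolar cells, had 4.79, 14 and 11.9 CPM with GFP and 23, 21.5 and 17.4 CPM with Olig2. Nhlh2, a neuronal factor, had 16.9, 3.94 and 2.01 CPM with GFP and 45.4, 24.1 and 26.6 CPM with Olig2. Of the 8 tested Id, Hes and Hey repressors, Id3, which blocks E proteins, had 33.8, 53.6 and 74.7 CPM with GFP and 17.3, 8.82 and 9.15 CPM with Olig2 (log2 change -2.20, SE 0.492, edgeR adjusted p = 0.368). Every Olig2 library was low for Id3. Hey1, a Notch target, had 2.69, 2.16 and 0 CPM with GFP and 6.71, 6.91 and 9.33 CPM with Olig2, but the 24 tested Notch pathway genes had a median of 0.02 with 2 higher and 1 lower without overlap.

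Genes of ganglion cells were lower with Olig2 in level, although none passed the test over all genes. Of 21 tested markers, 8 lay below the GFP libraries without overlap and 1 lay above, against 8.35% and 8.47% of all genes. Their median difference was -1.44, and -1.94 with Olig2 library 1 alone. Slc17a6, the vesicular glutamate transporter of ganglion cells, had 125, 118 and 133 CPM with GFP and 3.42, 29.3 and 12.4 CPM with Olig2. Every Olig2 library was far below every GFP library (log2 change -3.07, SE 1.09, edgeR adjusted p = 0.802). The neurofilament genes behaved alike in order of libraries. Nefl had 321, 154 and 189 CPM with GFP and 23.8, 93.2 and 72.7 CPM with Olig2. Nefm had 567, 197 and 252 CPM with GFP and 22.8, 138 and 33 CPM with Olig2. Both were lowest in Olig2 library 1. Tubb3, a neuronal tubulin, had 119, 91.5 and 72.4 CPM with GFP and 49.2, 43.9 and 31 CPM with Olig2 (edgeR adjusted p = 0.452). Isl1, a LIM homeodomain factor that bipolar and amacrine cells share with ganglion cells, went the other way, with 35.8, 35 and 31.2 CPM with GFP and 82.2, 73 and 61.4 CPM with Olig2 (edgeR adjusted p = 0.472). Genes that mark injury-resilient ganglion cell types had 1 of 13 tested members lower and 1 higher without overlap.

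The genes that injured neurons switch on were lower too. Of 28 tested members, 14 were lower without overlap and 0 higher, with a median of -1.45 (-1.89 with Olig2 library 1 alone). Over all genes 8.35% and 8.47% were. Members near the floor with Olig2, such as Ecel1, passed the low count filter through the GFP libraries alone and had to be lower. The count and the median are in part set by such members. Their summed level was 1529.7, 932 and 1886 CPM with GFP and 474, 631 and 504 CPM with Olig2. The groups did not overlap, and this list shares Gap43 and Nrn1 with the ganglion cell markers. Ecel1, an endopeptidase of injured neurons, had 25, 14.6 and 32.8 CPM with GFP and 0.571, 1.67 and 0.538 CPM with Olig2 (log2 change -4.70, SE 1.03, edgeR adjusted p = 0.379). It was at or near the floor in Olig2 libraries 1 and 3. Gap43, a growth cone protein, had 349, 72.2 and 297 CPM with GFP and 20.5, 56 and 26.4 CPM with Olig2. The neuropeptide gene Gal had 8.23, 4.57 and 142 CPM with GFP and 0, 2.62 and 1.79 CPM with Olig2. For Gal the GFP mean rests on GFP library 3. Sox11, an injury-induced transcription factor, had 31.9, 14.3 and 43.6 CPM with GFP and 0, 11 and 2.51 CPM with Olig2. Atf3 had 145, 94.7 and 209.9 CPM with GFP and 41.7, 41 and 45.2 CPM with Olig2. The Olig2 libraries were below the GFP libraries for each of these 5 genes, by a narrow margin in Sox11 and Gap43. Fgf2, a growth factor, had 126, 159.7 and 234 CPM with GFP and 85.3, 42.2 and 87.6 CPM with Olig2. Its neighbour Nudt6, which overlaps it on the opposite strand, had 75, 73.1 and 102 CPM with GFP and 39.7, 27.9 and 38.9 CPM with Olig2. The strand setting of the counting is not stated in the sources used here, so reads of the overlapping pair cannot be told apart.

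Upstream of that programme, Map3k12 was the only tested gene of DLK and SARM1 signalling without overlap. Map3k12, which codes for the injury kinase DLK, had 157, 150.0 and 172 CPM with GFP and 297, 237 and 324 CPM with Olig2. The Olig2 libraries lay above the GFP libraries (log2 change 0.84, SE 0.199, edgeR adjusted p = 0.396), while the other 15 genes of DLK and SARM1 signalling overlapped between the groups and the list median was 0.06. Within the BCL2 family and caspases, 4 of 28 tested genes were higher and 2 lower without overlap, against 8.47% and 8.35% of all genes. The family thus stayed near the background. Its median was -0.0001 and ran from -0.13 to 0.18 over the fits without 1 library. Xiap, an inhibitor of caspases, had 129.7, 132 and 139.8 CPM with GFP and 255, 153 and 276 CPM with Olig2. Its Olig2 libraries lay above the GFP libraries without passing the test (edgeR adjusted p = 0.712).

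**Figure D2:**
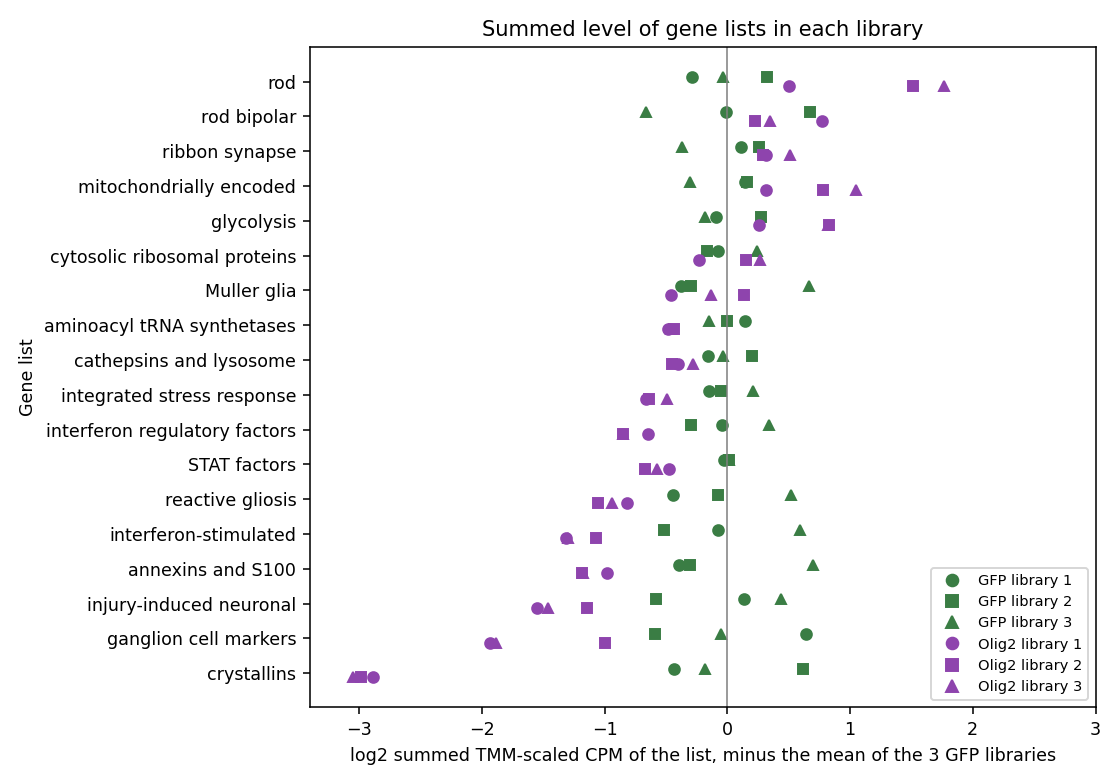
Summed TMM-scaled CPM of 18 gene lists in each library, as log2 difference from the mean of the GFP libraries. Ganglion cell, injury, interferon, gliosis and crystallin sums are lower in all Olig2 libraries, and rod and mitochondrially encoded sums are higher in all of them, while rod bipolar, glycolysis, Muller glia and ribosomal protein sums overlap between the groups.

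The listed interferon-stimulated genes, with their regulator Irf7 among them, had lower levels as a family. Interferon-inducible GTPases, listed apart, did not follow. Interferons signal through a complex with STAT2 and IRF9, which binds the interferon-stimulated response element, and IRF7 amplifies the response. Irf7 (chr7:141262706-141266481, minus strand) had 178, 147 and 168 CPM with GFP and 26, 37.2 and 24.9 CPM with Olig2. It fell 5.59-fold, and every Olig2 library was far below every GFP library (log2 change -2.49, SE 0.296, edgeR adjusted p = 0.0127). The edgeR adjusted p was above the threshold without GFP library 1 (0.0819), GFP library 3 (0.0747), Olig2 library 1 (0.127) or Olig2 library 3 (0.0951), and it was 0.397 with Olig2 library 1 alone. Of 51 interferon-stimulated genes 41 were tested, and 20 were lower and 0 higher without overlap, against 8.35% and 8.47% of all genes. Of these genes 14 were lower at an unadjusted p below 0.05, where 2.08% of all genes were, but 3 without GFP library 3 and 6 with Olig2 library 1 alone. The list median was -0.97, -1.15 with Olig2 library 1 alone and -0.65 without GFP library 3. Ifit1, which binds viral RNA, had 70.9, 30.6 and 127 CPM with GFP and 13.4, 14.8 and 16.3 CPM with Olig2 (log2 change -2.36, SE 0.473, edgeR adjusted p = 0.244). Its relative Ifit3 had 157, 66.9 and 209 CPM with GFP and 49.2, 38.1 and 28.3 CPM with Olig2. Ifit2 had 37.3, 15 and 131 CPM with GFP and 0.428, 10.3 and 10.4 CPM with Olig2. Ifit3 has a close copy, Ifit3b, so its reads may be split. GFP library 2 was the lowest GFP library for all 3 genes, yet above every Olig2 library. Usp18, a brake on interferon receptors, had 35.5, 58.9 and 124 CPM with GFP and 7.7, 20.3 and 14.4 CPM with Olig2 (edgeR adjusted p = 0.412). Oas1b, of the family of RNA-activated synthetases, had 17.8, 9.65 and 30.9 CPM with GFP and 0.285, 1.19 and 1.97 CPM with Olig2 (edgeR adjusted p = 0.943). Members near the floor with Olig2, such as Oas1b, may have passed the low count filter through the GFP libraries alone. Such members had to be lower, so the count of lower members and the list median may in part be set by them.

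Not every interferon gene was lower. The separate list of interferon-inducible GTPases had a median of 0.63, and 1.07 with Olig2 library 1 alone. Over the fits without 1 library that median ran from 0.16 to 0.94. Isg15, a ubiquitin-like modifier, had 1.5, 2.16 and 4.95 CPM with GFP and 2.28, 3.58 and 1.97 CPM with Olig2. Its groups overlapped. The factors of the interferon complex differed from it. Stat2 had 90.4, 48.1 and 88.5 CPM with GFP and 28.1, 34.6 and 37.5 CPM with Olig2. Irf9 had 113, 84.4 and 227 CPM with GFP and 76.2, 61.5 and 77.9 CPM with Olig2. Both were below the GFP libraries without passing the test (edgeR adjusted p = 0.788 and 0.805). Stat2, Irf9 and Irf7 are members of the interferon-stimulated list and among its 20 lower genes, so they are not separate from the result of that list. In the gp130 pathway, Stat3 had 211, 248 and 198 CPM with GFP and 140.3, 114 and 135 CPM with Olig2. The receptor subunit Il6st had 54.5, 60.9 and 48.7 CPM with GFP and 22.1, 37 and 31.2 CPM with Olig2. The feedback inhibitor Socs3 had 24.7, 32.4 and 38.8 CPM with GFP and 5.56, 12.6 and 8.43 CPM with Olig2. All 3 were lower without overlap (edgeR adjusted p = 0.943, 0.881 and 1), while the other 19 tested genes of that pathway overlapped. The sum over the 7 STAT genes was 396, 406 and 406 CPM with GFP and 289, 252 and 271 CPM with Olig2, a narrow range within each group. Sensors of foreign nucleic acid split into 4 higher and 5 lower without overlap of 26 tested, with a median of 0.02. The list as a whole thus leaned to neither side, and the genes named next are lower ones only. Ddx58, which codes for the RNA sensor RIG-I, had 15.4, 26 and 39 CPM with GFP and 10.8, 11.4 and 3.77 CPM with Olig2. Ifih1, which codes for MDA5, had 24.5, 23.9 and 32.1 CPM with GFP and 12, 7.39 and 7.54 CPM with Olig2. Both lay below the GFP libraries, as did the adaptor Myd88 with 36.8, 44.9 and 29.9 CPM with GFP and 11.6, 10.7 and 18.5 CPM with Olig2.

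Promoter windows of 4 of these genes are given to show the response element. The first 3 belong to genes that were lower without overlap, and the last to Isg15, which has the same motif and was not. Each runs 5′ to 3′ on the gene's strand and holds up to 250 bases before the start (RefSeq, GRCm38.p6), with matches to the core of the element (GAAA, any 2 bases, GAAA) on either strand in capitals.
Ifit1, chr19:34640639-34640870, plus strand: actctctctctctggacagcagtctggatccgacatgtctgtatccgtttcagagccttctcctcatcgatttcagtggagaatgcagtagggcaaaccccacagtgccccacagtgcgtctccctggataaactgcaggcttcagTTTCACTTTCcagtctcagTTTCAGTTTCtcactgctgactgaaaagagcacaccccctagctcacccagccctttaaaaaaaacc
Ifit3, chr19:34583279-34583528, plus strand: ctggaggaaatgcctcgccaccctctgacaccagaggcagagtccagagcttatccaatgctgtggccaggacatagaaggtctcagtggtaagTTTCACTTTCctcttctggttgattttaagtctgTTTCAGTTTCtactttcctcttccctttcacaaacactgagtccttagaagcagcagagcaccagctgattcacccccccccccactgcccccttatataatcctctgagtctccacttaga
Stat2, chr10:128270248-128270497, plus strand: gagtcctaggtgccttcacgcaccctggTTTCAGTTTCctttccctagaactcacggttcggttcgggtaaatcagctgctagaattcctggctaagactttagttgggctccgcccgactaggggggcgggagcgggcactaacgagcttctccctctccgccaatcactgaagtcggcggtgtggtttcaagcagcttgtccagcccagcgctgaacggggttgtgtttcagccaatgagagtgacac
Isg15, chr4:156200819-156201068, minus strand: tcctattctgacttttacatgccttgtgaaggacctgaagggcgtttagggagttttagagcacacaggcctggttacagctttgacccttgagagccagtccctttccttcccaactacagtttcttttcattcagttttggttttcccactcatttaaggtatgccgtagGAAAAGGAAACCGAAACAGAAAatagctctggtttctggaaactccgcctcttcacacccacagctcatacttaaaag
Of 27025 genes with such a window, 3.46% held the motif. Among the interferon-stimulated genes tested, 31 had a window and 12 held it (38.7%). It was present in 6 of 15 genes that were lower without overlap and in 6 of 16 of the others, so its presence did not divide them. Isg15, with 3 overlapping matches, was among the others. The window of Irf7 held no match. A match describes the letters only and names no bound factor.

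Antigen presentation by class I molecules, which interferon also raises, had members on both sides. B2m, the light chain of class I molecules, had 114, 69.7 and 130.4 CPM with GFP and 244, 151 and 209.6 CPM with Olig2. The heavy chain gene H2-K1 had 322, 239 and 323 CPM with GFP and 584, 371 and 472 CPM with Olig2. H2-Q6 had 26.6, 20.2 and 29.9 CPM with GFP and 75, 64.1 and 61.5 CPM with Olig2. These lay above the GFP libraries throughout (edgeR adjusted p = 0.638, 1 and 0.712). Tapbp, the tapasin that loads peptides, had 153, 176 and 147 CPM with GFP and 44.9, 64.1 and 55.8 CPM with Olig2. The immunoproteasome gene Psmb10 had 67.6, 35.7 and 97.7 CPM with GFP and 29.5, 29.6 and 31.9 CPM with Olig2. Both were below the GFP libraries (edgeR adjusted p = 0.509 and 0.712). Over the 24 tested genes, 5 were higher and 3 lower without overlap. H2-Q6 and other class I genes resemble each other closely, so reads may be split between them. No class II gene was without overlap among 9 tested.

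**Figure D3:**
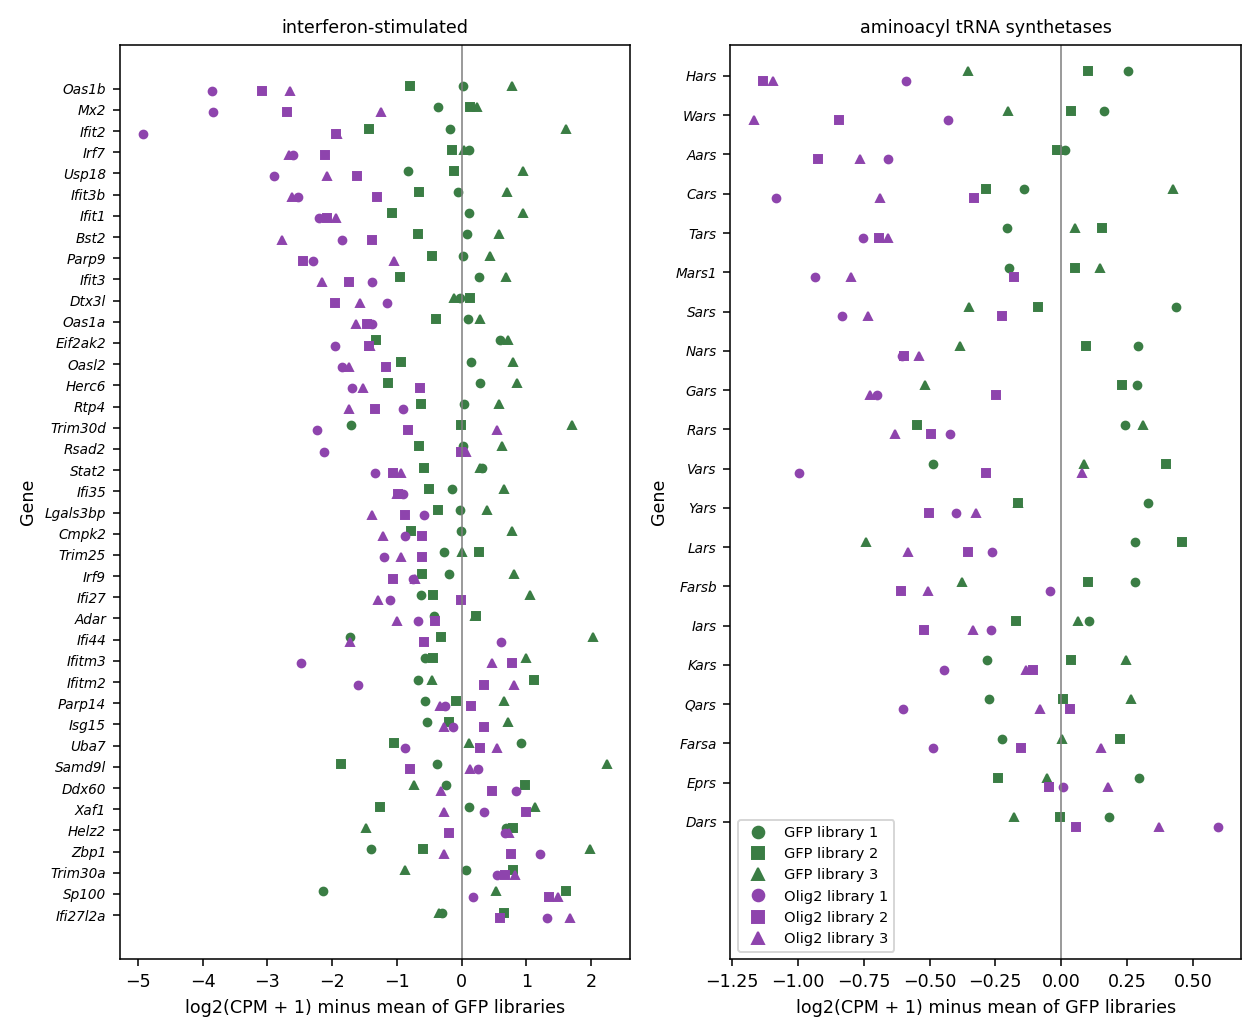
Level of 40 of the 41 tested interferon-stimulated genes (left) and of each cytosolic aminoacyl tRNA synthetase (right) in each library, as log2(CPM + 1) minus the mean of the GFP libraries (green, GFP; purple, Olig2), sorted by the difference. Points of all Olig2 libraries lie left of all GFP points for 20 of 41 interferon-stimulated genes and 8 of 20 synthetases.

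Aminoacyl tRNA synthetases, which charge tRNAs with amino acids and belong to the targets of the stress factor ATF4, were lower nearly throughout. Of 20 tested, 18 had a negative difference, 8 were lower and 0 higher without overlap, and the median was -0.47. Of all 15609 genes tested, 7157 had a negative difference, and 8.35% were lower and 8.47% higher without overlap. Over the fits without 1 library the median ran from -0.53 to -0.39, and it was -0.54 with Olig2 library 1 alone. Their summed level was 2244, 2028 and 1832 CPM with GFP and 1447, 1505 and 1473 CPM with Olig2, with the Olig2 libraries close together. Aars, the alanyl enzyme, had 189.6, 186 and 188 CPM with GFP and 119, 98.5 and 110.2 CPM with Olig2 (log2 change -0.78, SE 0.199, edgeR adjusted p = 0.451). Tars, the threonyl enzyme, had 85.9, 110.4 and 103 CPM with GFP and 58.5, 61 and 62.6 CPM with Olig2 (edgeR adjusted p = 0.859). The differences were small and uniform rather than large in a few genes, and no synthetase passed the test over all genes.

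The integrated stress response, in which ATF4 and its partners raise amino acid synthesis and transport, was lower in some of its genes and not in Atf4 itself. Of 27 tested genes, 7 were lower and 1 higher without overlap, with a median of -0.29 (-0.54 with Olig2 library 1 alone). Asns, asparagine synthetase, had 195, 198 and 96.9 CPM with GFP and 65.5, 91.6 and 66 CPM with Olig2. Nupr1, a stress-induced chromatin protein, had 196, 108 and 489 CPM with GFP and 34.1, 42.7 and 77.7 CPM with Olig2 (edgeR adjusted p = 0.524 and 0.597). Phgdh, Psat1 and Shmt2, enzymes of serine and glycine synthesis, were lower without overlap, with means of 38.5 ± 6.29, 44.7 ± 4.43 and 48.4 ± 18.7 CPM with GFP and 16 ± 9.46, 21.1 ± 7.54 and 26.7 ± 3.86 CPM with Olig2 (SD, n = 3 each). They passed no test, but their level in every Olig2 library was below the GFP libraries. Slc7a11, the cystine transporter, went the other way, with 1.35, 1.9 and 0 CPM with GFP and 7.28, 7.15 and 6.82 CPM with Olig2. Atf4 had 77.2, 118 and 108 CPM with GFP and 149, 93.9 and 123 CPM with Olig2. Ddit3, which codes for CHOP, had 59.6, 47.5 and 35.9 CPM with GFP and 30.7, 48.2 and 40.7 CPM with Olig2. Atf4 and Ddit3 both overlapped between the groups. The Atf3 window (chr1:191183341-191183583, minus strand), shown for the element through which ATF4 and C/EBP factors act (TGATGNAA on either strand, in capitals), reads as follows.
Atf3: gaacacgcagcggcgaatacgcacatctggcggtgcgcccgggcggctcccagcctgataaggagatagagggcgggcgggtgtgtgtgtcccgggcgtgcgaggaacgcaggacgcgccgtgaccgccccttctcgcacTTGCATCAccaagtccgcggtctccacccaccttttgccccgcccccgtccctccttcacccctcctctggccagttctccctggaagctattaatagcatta
That motif was present in 3.91% of all windows, in 4 of 7 stress response genes that were lower without overlap (Asns, Atf3, Chac1 and Nupr1), in 2 of 16 of the others, in 2 of 4 such synthetases (Aars and Tars) and in 1 of 9 of the other synthetases (Gars). Over the windows of all genes tested it was 2.34%. These sets are small, a match describes the letters only and names no bound factor, and a part of ATF4 in these levels was not tested.

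Cd63 leads a group of endosome and lysosome genes. Cd63 (chr10:128900989-128912822, plus strand), a tetraspanin of late endosomes and exosomes, had 447, 438 and 859 CPM with GFP and 138, 159 and 126 CPM with Olig2. It fell 4.12-fold and passed the test (log2 change -2.04, SE 0.287, edgeR adjusted p = 0.0311). Without GFP library 3, the highest, the log2 change was -1.65, where the largest change, without GFP library 2, was -2.20. The edgeR adjusted p stayed below the threshold without GFP library 2 (0.0484), Olig3 library 1 (0.0445) or Olig3 library 3 (0.0208), and it was 0.0747 to 0.272 without any of the other 6. With Olig2 library 1 alone it was 1. Sdcbp, the syntenin that sorts Cd63 into vesicles, had 199, 283 and 231 CPM with GFP and 60.5, 90.8 and 94.7 CPM with Olig2 (log2 change -1.53, SE 0.262, edgeR adjusted p = 0.109). The groups were well apart for both genes. Other tetraspanins did not follow, since Cd81 had 428, 374 and 476 CPM with GFP and 405, 351 and 353 CPM with Olig2, and 3 of 24 tested were lower without overlap. In the lysosome list 11 of 48 were lower and 1 higher, with a median of -0.31. Ctsb, the protease cathepsin B, had 1321, 1675 and 1227 CPM with GFP and 859, 704 and 855 CPM with Olig2. Ctsl, cathepsin L, had 204, 133 and 288 CPM with GFP and 114, 96.3 and 118 CPM with Olig2 (edgeR adjusted p = 0.511 and 0.665). Both proteases digest proteins in lysosomes. The lysosomal membrane gene Laptm4a had 108, 82.8 and 96.3 CPM with GFP and 66.3, 42.4 and 53.5 CPM with Olig2. Progranulin (Grn) had 71.1, 69.2 and 77.7 CPM with GFP and 38.5, 43.4 and 31.4 CPM with Olig2. Each of these stood below the GFP libraries. V-ATPase subunits, which acidify the same organelles, had 2 higher and 1 lower of 18 and a median of 0.01.

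Trafficking and stress defence genes leaned the same way by smaller margins. Of 53 tested Rab genes 10 were lower and 0 higher without overlap, with Rab6a of the Golgi at 277, 187 and 179 CPM with GFP and 159.5, 78.2 and 138 CPM with Olig2. Sqstm1, the autophagy receptor p62, had 423, 274 and 233 CPM with GFP and 159, 167 and 169 CPM with Olig2. Map1lc3b, the LC3 of autophagosomes, had 446, 534 and 514 CPM with GFP and 332, 365 and 397 CPM with Olig2. The autophagy list had 6 lower and 1 higher of 36, and its median of -0.09 was small. Among antioxidant genes, Srxn1, a sulfiredoxin, had 314, 103 and 117 CPM with GFP and 42.9, 48.2 and 34.4 CPM with Olig2. Hmox1, haem oxygenase, had 19.3, 22.3 and 11.6 CPM with GFP and 0.143, 6.2 and 2.69 CPM with Olig2. Prdx6, a peroxiredoxin, had 237, 226 and 334 CPM with GFP and 149.8, 166 and 154 CPM with Olig2. All 3 were below the GFP libraries. Gstp1, a glutathione transferase, was above them with 165, 136 and 123 CPM with GFP and 176, 257 and 238 CPM with Olig2. Ftl1, the ferritin light chain, had 1338, 1378 and 1774 CPM with GFP and 513, 901 and 924 CPM with Olig2. Ftl1 and Gstp1 have close copies, so their values are uncertain. None of these 8 genes passed (lowest edgeR adjusted p = 0.665).

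Among the lists of transcription factors, Irf7 was the only gene past the threshold. The next by p among lower ones was E2f6, a repressor of the E2F family, with 85, 118 and 63.1 CPM with GFP and 18.5, 23.1 and 26.4 CPM with Olig2 (log2 change -1.97, SE 0.339, edgeR adjusted p = 0.109). Its Olig2 libraries lay far below those of GFP, while the other 18 tested E2F and MYC genes had 1 higher and 0 lower without overlap. Junb, an early AP-1 gene, had 204, 239 and 286 CPM with GFP and 77.5, 118 and 113 CPM with Olig2 (edgeR adjusted p = 0.338). Cebpd, of the C/EBP family, had 244, 272 and 400.2 CPM with GFP and 105, 123 and 111 CPM with Olig2. Bcl3, a partner of NF-kB, had 95.9, 148 and 103 CPM with GFP and 20.4, 29.8 and 24.4 CPM with Olig2 (edgeR adjusted p = 0.961). All 3 are early response genes, and all were lower in every Olig2 library. Of 40 tested bZIP factors, 7 were lower and 2 higher without overlap. Klf6, a growth-associated Kruppel-like factor, had 78.9, 70.5 and 98.8 CPM with GFP and 33.4, 48.6 and 44.3 CPM with Olig2. Its family had 3 of 17 lower and 0 higher, with a median of -0.21. Sox9, a factor of Muller glia, had 38.2, 33.6 and 76.2 CPM with GFP and 12.6, 26.7 and 17.8 CPM with Olig2. Sox2, of the same cells and of progenitors, had 7.63, 23.2 and 16.6 CPM with GFP and 5.14, 6.91 and 4.31 CPM with Olig2. With Sox11 they made up the 3 lower of 9 tested Sox genes, whose median of -0.78 was 0.08 with no low count filter and ranged from -1.23 to -0.22 without 1 library. The lowest came without GFP library 1 and the highest without Olig2 library 3.

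Several factors of the outer retina were higher in level. Of 14 tested, 4 were higher and 1 lower without overlap, with a median of 0.41 (0.40 with Olig2 library 1 alone). Nrl, which specifies rods, had 226, 281 and 298 CPM with GFP and 470.3, 586 and 823 CPM with Olig2. Crx, which acts in rods and cones, had 297, 347 and 319.6 CPM with GFP and 473, 472 and 545 CPM with Olig2. The rod factor Nr2e3 had 317, 522 and 405 CPM with GFP and 543, 678 and 842 CPM with Olig2. All were above the GFP libraries (edgeR adjusted p = 0.525, 0.667 and 1). The thyroid hormone receptor gene Thrb, which acts in cones, was above them too, with 39.5, 34 and 19.5 CPM with GFP and 82.5, 41 and 84.3 CPM with Olig2. LIM and POU factors had 6 of 19 tested genes higher and 0 lower without overlap. The median of 0.39 was -0.02 without GFP library 3 and 0.008 with Olig2 library 1 alone. Besides Isl1 they held Ldb2, a cofactor of LIM proteins, with 7.78, 3.55 and 6.43 CPM with GFP and 29.4, 20.0 and 16.5 CPM with Olig2. The bipolar cell factor Lhx4 had 16.9, 10.5 and 8.84 CPM with GFP and 25.5, 22.7 and 22.8 CPM with Olig2. Both were higher in every Olig2 library (edgeR adjusted p = 0.615 and 1). Zinc finger genes named Zfp had 36 higher and 16 lower of 345 and a median of 0.12. Over all genes 8.47% were higher and 8.35% lower without overlap. Their sums stayed within 7824 to 7922 CPM with GFP and 8107 to 9011 CPM with Olig2. Without scaling, the Zfp genes held 0.893, 0.894 and 0.938% of counts with GFP. With Olig2 they held 0.984, 0.626 and 0.714%, so the separation of the sums depends on the scaling. Forkhead, ETS, T-box, Zbtb and nuclear receptor families had at most 3 members without overlap in either direction.

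Transcripts of rods and rod bipolar cells were higher as families. Rod bipolar cells carry the rod signal inwards through the glutamate receptor mGluR6, which closes the channel TRPM1. Pcp2 (chr8:3623371-3625545, minus strand), a G protein modulator of bipolar cells, had 64, 79.6 and 69.8 CPM with GFP and 300.5, 302 and 224 CPM with Olig2. It rose 3.87-fold (log2 change 1.95, SE 0.217, edgeR adjusted p = 0.0127), with an edgeR adjusted p of 0.0819 without GFP library 1, 0.0747 without GFP library 3 and 0.0854 without Olig2 library 1. Pet100 (chr8:3621548-3625848, plus strand), which codes for an assembly factor of cytochrome c oxidase, had 61.7, 78.4 and 69.8 CPM with GFP and 309, 312 and 217 CPM with Olig2. It rose 3.99-fold (log2 change 2.00, SE 0.255, edgeR adjusted p = 0.0171), and its edgeR adjusted p was 0.0665 to 0.165 without any 1 of the GFP libraries, Olig2 library 1 or Olig2 library 2. With Olig2 library 1 alone the edgeR adjusted p was 0.0693 for Pcp2 and 0.114 for Pet100. The model of Pet100 spans Pcp2 on the other strand and the levels of the pair lay close together in every library, so their reads cannot be told apart. Of 19 tested rod bipolar genes, 13 were higher and 0 lower without overlap, with a median of 0.95 (1.21 with Olig2 library 1 alone). Trpm1 had 253, 280.2 and 272 CPM with GFP and 620.2, 570.3 and 392 CPM with Olig2. Grm6, which codes for mGluR6, had 18, 32.1 and 28.5 CPM with GFP and 86, 53.6 and 52 CPM with Olig2. Rgs11, which speeds the G protein of that receptor, had 38.5, 52.7 and 26.9 CPM with GFP and 98.2, 87.5 and 95.8 CPM with Olig2 (log2 change 1.25, SE 0.285, edgeR adjusted p = 0.375). All of these were apart between the groups. The sum over the list was not, with 1999, 3199.9 and 1267 CPM with GFP and 3424, 2348 and 2560.0 CPM with Olig2. For cone bipolar cells the median was 0.01, and 5 of 26 genes were higher and 0 lower.

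For rods, 17 of 22 genes were higher and 0 lower without overlap, with a median of 0.98 that became 0.60 with Olig2 library 1 alone. Pdc, phosducin, had 2131, 3314 and 3203 CPM with GFP and 6407, 8628 and 13474 CPM with Olig2. Gnb1, the beta subunit of transducin, had 2308, 3355 and 2727 CPM with GFP and 4463, 9859.6 and 18251 CPM with Olig2 (edgeR adjusted p = 0.404 and 0.472). Both were highest in Olig2 library 3. Pde6b, a subunit of the rod phosphodiesterase, had 858, 1305 and 1116 CPM with GFP and 1902, 2108 and 2187 CPM with Olig2. Slc24a1, the exchanger of the outer segment, had 420.4, 584 and 552 CPM with GFP and 894, 1097 and 1094 CPM with Olig2. In each the lowest Olig2 library was above the highest GFP library, and Olig2 libraries 2 and 3 had the most. Cone genes had a median of 0.87, which was -0.07 with Olig2 library 1 alone. Their 3 members without overlap included Guca1a, a guanylate cyclase activator, with 437, 619.6 and 415 CPM with GFP and 914, 1977 and 1988 CPM with Olig2. At the ribbon synapse, 6 of 26 genes were higher and 0 lower. Cplx3, the complexin of ribbon synapses, had 289.7, 293 and 199 CPM with GFP and 776, 626 and 547 CPM with Olig2 (log2 change 1.32, SE 0.282, edgeR adjusted p = 0.338). Rims2, of the active zone, had 142, 126 and 127 CPM with GFP and 234, 192 and 260.3 CPM with Olig2. Both were higher in every Olig2 library. Ift57, a protein of cilium transport, ran against the photoreceptor genes with 144, 149.8 and 197 CPM with GFP and 55.4, 52.2 and 84.5 CPM with Olig2 (edgeR adjusted p = 0.221).

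Genes of energy supply, of which photoreceptors use much, were higher mainly in Olig2 libraries 2 and 3. Of 46 tested nuclear genes of complex I, 8 were higher and 1 lower without overlap. Ndufs7 had 132, 132 and 129 CPM with GFP and 188, 261 and 227 CPM with Olig2 (edgeR adjusted p = 0.664). The median was 0.55, but 0.05 with Olig2 library 1 alone. All 18 tested nuclear genes of ATP synthase had a positive difference, with a median of 0.45 that became 0.03 with that library alone. Of all 15609 genes tested, 8452 had a positive difference. The mitochondrially encoded genes summed to 18774, 18984 and 13736 CPM with GFP and 21161, 29184 and 35220.0 CPM with Olig2, with 6 of 10 higher without overlap. Their median went from 0.80 to 0.35 in the same setting. Glycolysis had 5 of 31 higher. Aldoc, an aldolase, had 633, 748 and 412 CPM with GFP and 947, 933 and 994 CPM with Olig2. Gapdh, which has many pseudogenes, had 2939, 3291 and 2204 CPM with GFP and 3642, 6436 and 6807 CPM with Olig2. The rod sums differed in the same way, with 51848 to 79180.0 CPM with GFP and 89876 to 215609 CPM with Olig2. Their part in the energy genes was not tested.

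**Figure D4:**
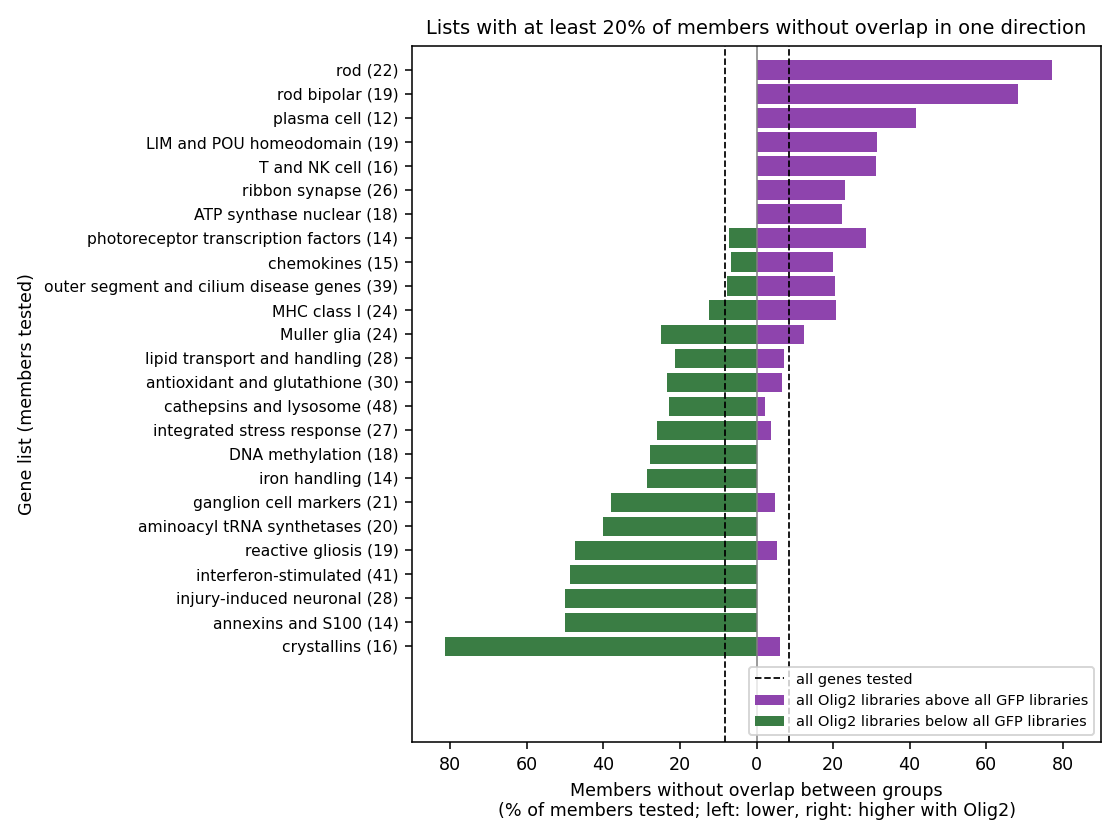
Share of tested members whose 3 Olig2 libraries all lie above (purple, right) or below (green, left) the 3 GFP libraries, for the 25 of 102 lists of at least 12 tested genes in which it reached 20% in either direction. Dashed lines mark all genes tested, 8.47% higher and 8.35% lower, and the longest bars are rods with 77.3% higher and crystallins with 81.2% lower. In the crystallin, plasma cell and T and NK cell bars, members counted almost only in the group where they are high had to differ. Other bars may hold such members, as the injury-induced neuronal bar does with Ecel1.

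The antibody genes Igkc and Jchain rose with Olig2. Plasma cells make them as paired heavy and light chains, and the constant gene of the heavy chain sets the antibody class. Igkc (chr6:70726435-70726966, plus strand), the kappa constant gene, had 4.34, 18.3 and 2.28 CPM with GFP and 7575, 2637 and 3439 CPM with Olig2. It rose 548-fold (log2 change 9.09, SE 1.1, edgeR adjusted p = 0.0127), by 10.43 on the log2 scale without GFP library 2 and by 8.47 without Olig2 library 1. Jchain (chr5:88519809-88527891, minus strand), which joins antibody units, had 7.03, 23.6 and 13.1 CPM with GFP and 285, 218 and 132 CPM with Olig2. It rose 14.5-fold (log2 change 3.85, SE 0.449, edgeR adjusted p = 0.0127). Without GFP library 1, GFP library 3 or Olig2 library 1 the edgeR adjusted p was 0.138, 0.0747 and 0.0854 for Igkc and 0.0819, 0.0788 and 0.0854 for Jchain. The heavy chain class differed between the Olig2 libraries. Ighg1 had 1.65, 2.67 and 2.68 CPM with GFP and 15501, 18.1 and 5303 CPM with Olig2, so it was high in Olig2 libraries 1 and 3. Ighg2c had 8.23, 11.7 and 0.803 CPM with GFP and 6.56, 1371 and 20.1 CPM with Olig2. Igha had 5.69, 2.41 and 0 CPM with GFP and 7.85, 978 and 13.3 CPM with Olig2. Both were high in Olig2 library 2 only, although constant genes resemble each other and may exchange reads. None of the heavy chain genes passed (edgeR adjusted p = 0.134, 0.525 and 0.45). The variable segment Igkv14-111 (chr6:68256389-68256869, plus strand) followed the same division as Ighg1, with 0.15, 0.127 and 0 CPM with GFP and 575, 4.05 and 392 CPM with Olig2, from 1, 1 and 0 counts with GFP and 4032, 17 and 2187 with Olig2. The ratio was 4094 with a 95% counting interval of 1133 to 33815 (edgeR adjusted p = 0.0456). Without Olig2 library 2 the edgeR adjusted p was 1.08e-05 and without Olig3 library 3 it was 0.0303, but it was 0.0706 to 0.357 without any of the other 7, and the log2 change ran from 10.77 without Olig2 library 1 to 12.11 without Olig2 library 2. Segments resemble each other, so the assignment of reads to this one is uncertain. The lambda segment Iglv1 had 0.15, 0.127 and 0 CPM with GFP and 24.7, 18.1 and 23 CPM with Olig2, nearly even over the Olig2 libraries (edgeR adjusted p = 0.158).

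**Figure D5:**
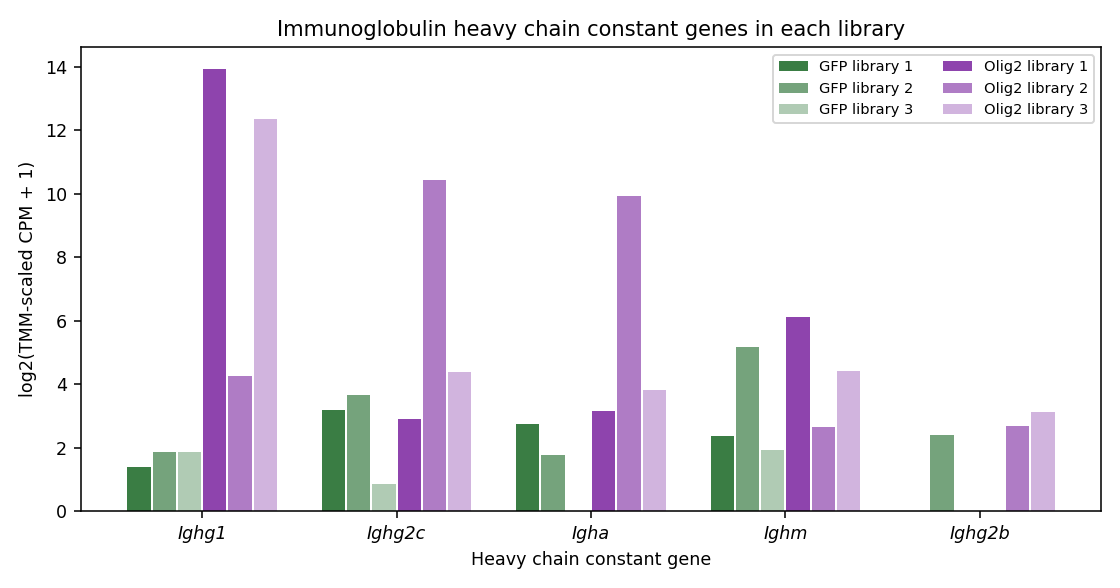
Heavy chain constant genes in each library, as log2(TMM-scaled CPM + 1) (bars start at 0; green, GFP; purple, Olig2; lighter shades for libraries 2 and 3). Ighg1 is high in Olig2 libraries 1 and 3, and Ighg2c and Igha are high in Olig2 library 2.

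Other genes of B cells and plasma cells were counted in the Olig2 libraries too. Of 17 plasma cell genes 12 were tested, and 5 were higher and 0 lower without overlap. The B cell receptor subunit Cd79a had 0 counts in every GFP library and 9.99, 8.58 and 13.1 CPM with Olig2, at least 78.3-fold higher against the floor of 3 counts over the group. Pou2af1, a coactivator of B cells, likewise had 0 counts with GFP and 3.85, 2.38 and 4.84 CPM with Olig2. Neither passed the test (edgeR adjusted p = 0.412 and 0.665). Sdc1, a marker of plasma cells, ran the other way, with 25 counts pooled over the GFP libraries and 2 over the Olig2 libraries. The whole B cell list of 16 genes summed to 71.1, 347 and 214 CPM with GFP and 162, 494 and 557 CPM with Olig2 and overlapped. The plasma cell list summed to 236, 321 and 283 CPM with GFP and 693, 531 and 418 CPM with Olig2. The part of such cells, or of their RNA, in the antibody values was not tested. Genes of T and NK cells had 5 of 16 tested higher and 0 lower without overlap, and all 25, Thy1 among them, summed to 41.5, 90.6 and 62.4 CPM with GFP and 225, 114 and 275 CPM with Olig2. Il7r, the receptor of interleukin 7, had 0, 0.127 and 0.134 CPM with GFP and 32.7, 2.86 and 8.79 CPM with Olig2. Ccl5, a chemokine, had 0, 1.27 and 0 CPM with GFP and 17.8, 24.3 and 88.3 CPM with Olig2 (edgeR adjusted p = 0.378 and 0.414). Ccr7, a homing receptor of lymphocytes and dendritic cells, had 0 counts with GFP and 84.3, 5.72 and 65.1 CPM with Olig2, at least 428-fold higher (edgeR adjusted p = 0.154). Olig2 library 2 was the lowest for Il7r and Ccr7. The T cell gene Cd8b1 ran the other way, with 24 counts pooled over the GFP libraries and 0 over the Olig2 libraries. Members that passed the low count filter through 1 group alone had to differ, so the counts of members without overlap describe only the genes tested.

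Slpi, a secreted inhibitor of neutrophil proteases made by epithelia and leukocytes, had 0, 2 and 0 counts with GFP (chr2:164354070-164389095, minus strand). With Olig2 it had 242, 187 and 6.46 CPM, so library 3 was far below the other two. It rose, with a ratio of 1653 and a 95% counting interval of 457 to 13658 (log2 change 10.37, SE 1.45, edgeR adjusted p = 0.0311). Leaving out GFP library 2 moved its log2 change to 12.78 and leaving out Olig2 library 1 to 9.76, and it kept an edgeR adjusted p below the threshold without Olig2 library 3 (3.25e-04), Olig3 library 1 (0.0445) or Olig3 library 3 (0.0208), with 0.0892 to 0.307 without any of the other 6. No other tested granulocyte gene was without overlap, with 6 of 21 such genes tested. The whole list, Slpi included, summed to 36.8, 144 and 136 CPM with GFP and 292, 273 and 207 CPM with Olig2. Slpi makes up most of that sum in Olig2 libraries 1 and 2 but little of it in Olig2 library 3. Microglia and macrophage genes summed to 94.1, 845 and 329 CPM with GFP and 160.1, 572 and 841 CPM with Olig2 and had 0 of 21 tested without overlap.

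Reactive glia genes were lower with Olig2. Of 19 tested, 9 were lower and 1 higher without overlap, with a median of -0.96 (-0.82 with Olig2 library 1 alone). Gfap, the filament protein of reactive Muller glia and astrocytes, had 125, 78.6 and 129 CPM with GFP and 7.28, 19.6 and 6.46 CPM with Olig2. Lgals3, a galectin of reactive and phagocytic cells, had 71.2, 127 and 247 CPM with GFP and 2.43, 19.1 and 8.43 CPM with Olig2. Every Olig2 library was low for both (edgeR adjusted p = 0.943 and 0.524). Edn2, an endothelin of injured photoreceptors, had 200.2, 260.5 and 252 CPM with GFP and 117, 114 and 119 CPM with Olig2. Annexin and S100 genes had 7 of 14 lower and 0 higher, led by Anxa1 with 37.3, 115 and 391 CPM with GFP and 27.4, 24.6 and 26 CPM with Olig2. GFP library 3 was highest for Anxa1 and Lgals3. Homeostatic Muller glia genes went both ways, with 3 higher and 6 lower of 24. Glul, glutamine synthetase, had 92.3, 108 and 108 CPM with GFP and 196, 348 and 179.8 CPM with Olig2. The glutamate transporter Slc1a3 was lower in every Olig2 library, with 95.2, 78.1 and 319.8 CPM with GFP and 65.3, 67.5 and 40.5 CPM with Olig2.

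Crystallins, the proteins of the lens that stressed retina also makes, had the lowest median of the lists. Of 16 tested, 13 were lower and 1 higher without overlap, with a median of -4.96 that was -3.92 without GFP library 2 and -5.97 without GFP library 3. Members with almost no counts in the Olig2 libraries passed the filter through the GFP libraries alone and had to be lower, so the count and the median describe them and support nothing. Cryaa had 538, 1371 and 20.8 CPM with GFP and 0.285, 0.715 and 0.359 CPM with Olig2. Crybb2 had 496, 1233 and 32 CPM with GFP and 0.713, 0.477 and 0.897 CPM with Olig2 (edgeR adjusted p = 0.295 and 0.244). Levels differed widely within the GFP group, with GFP library 2 highest and GFP library 3 lowest. Cryab, a small heat shock protein found outside the lens as well, had 164, 321 and 158 CPM with GFP and 27, 40.8 and 40.9 CPM with Olig2 (edgeR adjusted p = 0.335). The 18 lens genes other than crystallins summed to 316, 373 and 254 CPM with GFP and 378, 263 and 292 CPM with Olig2, which overlapped but hides single members. Of 6 tested, 1 was higher and 2 lower without overlap, and their median was -0.08. That median was unstable, at -1.37 with no low count filter and -1.22, -1.13 and -1.76 without Olig2 library 1, 2 or 3. Over all fits without 1 library it ran from -2.16 without GFP library 3 to -0.06 without GFP library 2. Grifin, a lens galectin relative, had 144 counts over the GFP libraries and 0 over the Olig2 libraries. Cell cycle genes had a median of -1.58, which was -0.39 without GFP library 3, and their sum was 329, 642 and 2323 CPM with GFP and 487, 378 and 401 CPM with Olig2. Their lower level thus rests on that GFP library.

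Many families stayed near the background. Of 81 tested ribosomal protein genes 6 were higher and 1 lower, and of 82 chromatin remodellers 8 and 5. Kinesins and dyneins had 3 and 5 of 53, the proteasome 5 and 4 of 46, and cholesterol synthesis 0 and 1 of 25. Splicing factors had 16 of 91 higher and 1 lower, above the background in 1 direction, at a median of 0.13. Rbm17, a spliceosome component, was lower and close to the threshold, with 186, 215 and 252 CPM with GFP and 84.9, 90.1 and 93.7 CPM with Olig2 (log2 change -1.28, SE 0.213, edgeR adjusted p = 0.0934). Semaphorins, ephrins, integrins, cadherins, Wnt, hedgehog and EGF genes had at most 2 members without overlap in either direction.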

How the data were processed

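RNA of 6 libraries (3 Olig2, 3 GFP) was analysed, with the 3 Olig3 libraries adding their spread. The deposited values are counts of reads per gene, made by the authors with HISAT2 and HTSeq on mm10, per the submitters' processing notes, with no versions given. Of 50764 genes 29429 had counts and 15609 passed filterByExpr by group. Genes were named and placed from GENCODE M21, which matched 50712. Counts were TMM-scaled and fitted as group means over 9 libraries (6 residual degrees of freedom) by edgeR's quasi-likelihood test (edgeR 4.0.16, R 4.3.3), with Benjamini-Hochberg adjustment over all genes tested and a threshold of 0.05. The code of the fit was run on counts simulated from its own model, which cannot show how well that model suits these libraries. List medians are differences of mean log2 CPM (prior count 2). A list member counted as without overlap when all 3 Olig2 libraries lay on one side of all 3 GFP libraries. Windows of RefSeq (GRCm38.p6) covered 27025 gene symbols. Alternatives were other scalings and filters, robust estimation, a replicate block, limma 3.58.1 (voom), DESeq2 1.42.0, and leaving out each library.

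The members and the 135 gene lists were chosen with earlier results of these data known. Genes were named by rules: the Olig genes, all genes past the threshold, up to 3 members of each list without overlap and with the smallest p (or, if none, the 2 with the highest mean), the 12 leading transcription factors and the 15 leading genes in each direction, and the 10 with the largest fold and at least 20 CPM. Atf4, Cd81, Cd8b1, Cebpd, Chac1, Ddit3, Edn2, Gal, Gap43, Gapdh, Gars, Glul, Grifin, Grn, H2-K1, Ifih1, Ifit2, Ifit3, Ighg2c, Isg15, Malat1, Myd88, Nrn1, Oas1b, Phgdh, Pou4f1, Prdx6, Psat1, Rbpms, Sdc1, Shmt2, Slc1a3, Slc7a11 and Thy1 were chosen after their values were seen. Results for a few genes are not reported here.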

Additional observations from a re-analysis of the deposited data

How the results depend on the processing

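The count of genes past the threshold was 8 under each of the other scalings (RLE, upper quartile and TMMwsp) and without mitochondrially encoded and rod genes, with the same 8 genes. It was 176 with no low count filter (79 higher, 97 lower), 23 with only the 6 libraries compared (7 higher, 16 lower) and 90 with DESeq2 (43 higher, 47 lower), and these held 8, 7 and 8 of the 8 genes. It was 6 with robust estimation, with limma-voom and with a minimum of 10 CPM in 3 libraries, and 11 at an adjusted p of 0.1. Leaving out 1 library gave 0 to 24 genes. The cause of these differences was not tested. With the replicate number as a block the count was 10, of which 7 were among the 8, and the residual degrees of freedom fell to 4. Samples of the same number did not deviate together (correlations of 0.0292, -0.0634 and 0.0105). Deviations from means of 3 libraries are a weak check, so whether the numbers pair the libraries was not settled. Over the fits without 1 library the log2 change ran from -1.29 to 0.16 for Thy1 and -0.44 to 0.51 for Isg15, which was also 0.0323 without Olig2 library 3. With Olig2 library 1 alone it was -0.0732 for Ighg2c and -0.21 for Malat1. Slpi and Igkv14-111 had edgeR calls that limma-voom did not share (adjusted p = 0.809 and 0.911). Of the list medians, 2468 values under alternatives stayed within the spread between libraries and 208 moved further. With 3 libraries a group and a common dispersion of 0.532, single genes need large differences to pass, and lists of genes share libraries, cells and depth.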

Other observations

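Genes of inhibitory and modulatory signalling, described in no list above, had small differences with a few members apart. Among 32 tested receptors of GABA, glycine and acetylcholine, 3 were higher and 1 lower without overlap. Gabrr1, a rho subunit of the GABA receptors of bipolar cells, had 17.5, 29.6 and 16.9 CPM with GFP and 67.3, 31.7 and 68.2 CPM with Olig2. Gabrr2, the companion rho subunit, had 91, 60.3 and 43.5 CPM with GFP and 116, 127 and 96.3 CPM with Olig2. Neither passed the test (edgeR adjusted p = 0.665 and 0.881). The glycine transporter Slc6a9 of amacrine cells had 19.8, 35.5 and 31.6 CPM with GFP and 119, 49.1 and 43.6 CPM with Olig2, above the GFP libraries, within a list of 21 amacrine genes of which 2 were higher and 0 lower.

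Phosphatases that switch off MAP kinases differed in direction. Dusp8 had 184, 155 and 148 CPM with GFP and 74.6, 86.5 and 87.6 CPM with Olig2. Dusp2, an immune cell phosphatase, had 0, 0.127 and 0.402 CPM with GFP and 16.4, 2.15 and 7.0 CPM with Olig2. Their list had 6 higher and 6 lower of 60 tested. Heat shock proteins and chaperones had 4 higher and 8 lower of 80. Hspa1b, an inducible HSP70 gene with a near-identical copy to which reads may be lost, had 11.2, 15 and 13.9 CPM with GFP and 30.7, 37 and 32.7 CPM with Olig2. The co-chaperone Hspbp1 had 79.6, 74.6 and 65.6 CPM with GFP and 39.7, 20.7 and 32.3 CPM with Olig2. In chemokine and interleukin genes, Ccl22, a chemokine of dendritic cells, and Il1rn, the antagonist of interleukin 1, had 0 counts in every GFP library. Ccl22 had 115, 2.62 and 6.46 CPM with Olig2, at least 374-fold higher against 3 counts over the group, a value that rests on Olig2 library 1. Il1rn had 13.7, 5.25 and 9.87 CPM, at least 75.7-fold higher. The epithelial chemokine Ccl28 had 7.48, 8.12 and 13.1 CPM with GFP and 0.143, 0 and 0.359 CPM with Olig2. None of these passed the test (edgeR adjusted p = 0.412, 0.433 and 0.664).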
